A study of Mus musculus with 10 samples.

Results

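The genes described here are the chemokines, interleukins and tumour necrosis factor (TNF) superfamily ligands of the mouse, with their receptors, as they were transcribed in sorted microglia. A protein-coding gene was taken when its symbol starts with Ccl, Ccr, Cxcl or Cxcr and a digit, with Il and a digit, or with Tnfsf or Tnfrsf, or is Ccrl2 or Tnf, and when it had a mean of at least 10 reads over the 10 libraries. Of 53697 genes in the tables, 168 fitted the symbols and 81 of these reached the read limit. The 87 genes below it included 35 without a read in any library, among them Il2, Il5, Il10, Il13 and Il17a. Just inside the limit stood Il18r1 (10.3 reads), Cxcr5 (11.3 reads) and Il22ra2 (12.2 reads), and just outside it Tnfsf18 (9.60 reads), Il20rb (8.90 reads) and Cxcr2 (8.49 reads). The mean over both genotypes was the only measured value in this rule, although the rule was set with earlier results of these data known. Cxcl12, Cxcr5 and Il18r1 had fewer than 10 reads on average in DKO and so reached the limit through their WT libraries. None of these 3 is among the 14 changed genes of the main test below, and Cxcl12 passed only in an alternative fit with a term for the library numbers.

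Microglia of female Bhlhe40-/-Bhlhe41-/- mice (DKO) gave 5 libraries and those of female wild-type mice (WT) gave 5, the wild types being C57BL/6J or Rosa26Stop-YFP animals. All mice were untreated, on the C57BL/6 background and at least 2 or 6 months old, and neither the age nor the wild-type strain is given for a single library. Microglia are the macrophages that reside in the brain. They were sorted in 2 rounds as live CD45.2+CD11b+ cells that lacked Ly6C, Ly6G, MHCII and CD38, from perfused brains without the olfactory bulb and the cerebellum. Both genes are missing from every cell of a DKO mouse, not from microglia alone. The labels call the libraries biological replicates without saying whether each one is a single mouse, so the p-values reflect only how these libraries vary, which may be technical.

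Chemokines are small secreted proteins that guide leukocytes through G protein-coupled receptors, interleukins signal mostly through receptor chains that act as pairs or larger complexes, and TNF superfamily ligands bind receptors that lead to NF-kB activation or to cell death. Microglia are a main source of several of these ligands in the brain and carry many of the receptors. BHLHE40 and BHLHE41 are basic helix-loop-helix factors that bind the E-box CACGTG and act mostly as repressors.

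Each library held 22483284 to 26109349 estimated counts, and 80 or 81 of the 81 genes had a count in each. The microglia markers (8 of 8 detected) summed to 64185 to 78322 CPM (counts scaled to a common library size) in DKO libraries and 70031 to 77672 CPM in WT libraries, although P2ry12 was lower in DKO (log2 fold change -0.50, adjusted p = 0.0301). Bhlhe40 was at 0.177 ± 0.136 CPM in DKO and 0.601 ± 0.385 CPM in WT (SD, n = 5 each), with an exact two-sided permutation p of 0.0476. Bhlhe41 was at 50.9 ± 8.46 CPM in DKO and 35.9 ± 6.67 CPM in WT (SD, n = 5 each), an exact permutation p of 0.0238, so that its gene-level count was not lower in the libraries labelled DKO. Counts per gene do not show which exons the reads came from, and the labels were not checked further. WT 3 lay nearest to the DKO libraries on the first principal component, and WT 1 and WT 5 lay farthest from them. Mitochondrial genes held 1.75% and 1.54% of counts in WT 1 and WT 5, 0.986% to 1.16% in the other WT libraries and 1.04% to 1.58% in DKO libraries. Libraries numbered 4 and 5 differed from those numbered 1 to 3 in both genotypes. The labels name no batch, and counts and main values of the cytokine and receptor genes that rest on these libraries are given with and without them.

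In TPM, in which counts are divided by transcript length and scaled to a fixed sum, the genes spanned more than 3 orders of magnitude. The noncoding RNA gene Gm23935 was left out and each library rescaled, so these TPM are not the deposited values. Of the 81 genes, 18 had a mean of at least 100 TPM, 38 had at least 10 TPM and 12 had less than 1 TPM. Among ligands, Ccl4 had the highest mean level (529 TPM in DKO and 445 TPM in WT), ahead of Ccl6 (397 TPM in DKO and 483 TPM in WT), Il16 (233 TPM in DKO and 224 TPM in WT) and Ccl9 (179.6 TPM in DKO and 258 TPM in WT). Among receptors, Tnfrsf1b (295 TPM in DKO and 317 TPM in WT), Il10rb (331 TPM in DKO and 234 TPM in WT), Tnfrsf1a (236 TPM in DKO and 251 TPM in WT) and Il10ra (227 TPM in DKO and 256 TPM in WT) were among the highest. This order was not tested.

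**Figure D1:**
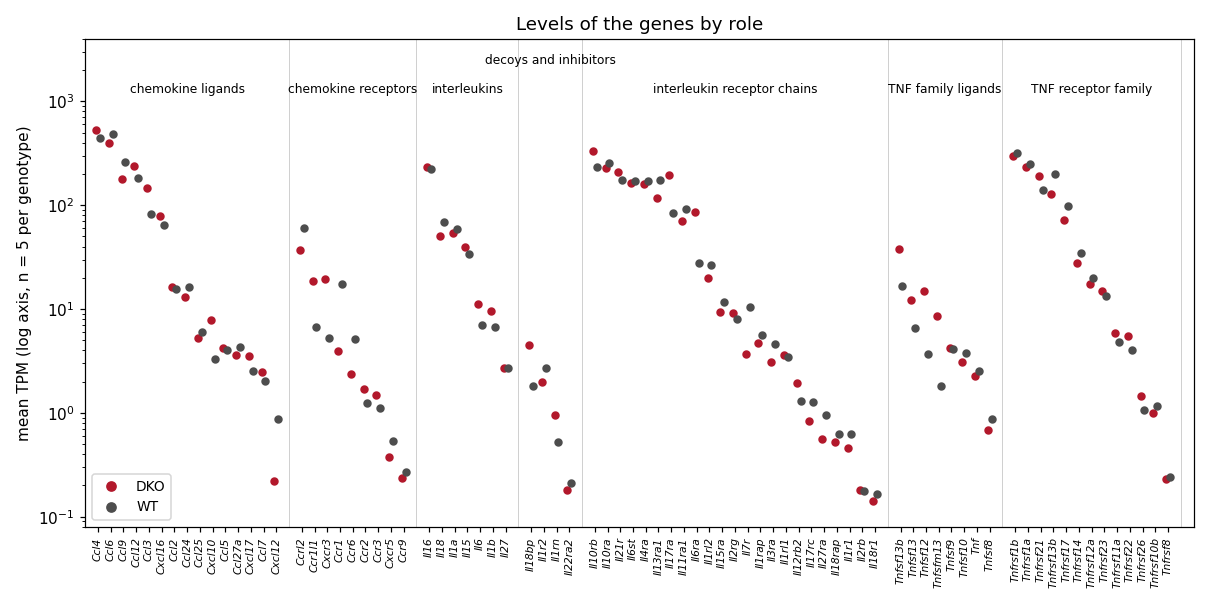
Mean TPM (rescaled without Gm23935) of 79 genes on a log axis, DKO (red) and WT (grey) side by side, 5 libraries per genotype, sorted by level within each role. Il4i1, which is no cytokine, is left out. Ccl4 and Ccl6 lead the ligands, and the largest gaps between the genotypes are those of Ccr1, Cxcr3, Cxcl12, Tnfsf12 and Tnfsfm13. Cxcl12 reached the read limit through its WT libraries.

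DKO was compared with WT by edgeR's quasi-likelihood test over 13916 genes, with p-values adjusted over all of them and a threshold of 0.05. Of all genes tested, 6.19% passed, 4.34% as higher and 1.85% as lower in DKO. Of the 80 cytokine and receptor genes tested (Cxcr5 was too low), 14 passed, or 17.5%, with 9 higher and 5 lower in DKO. Higher in DKO were Ccl3, Cxcl10, Cxcr3, Ccr1l1, Il6, Il18bp, Tnfsf12, Tnfsf13 and Tnfsfm13. Among those lower in DKO were Ccr6, Il7r, Il13ra1 and Tnfrsf13b. The whole group did not shift one way: 40 of the 80 fold changes were above 0, and the median log2 fold change was -0.0032, beside -0.0095 over all genes tested. DKO and WT libraries did not overlap in 12 of the 80 genes (15%), beside 7.62% of all genes tested. The count of 14 depended on single libraries: it was 7, 6, 7, 7 and 8 without DKO 1, DKO 2, WT 2, WT 4 and WT 5, beside 2.83%, 2.89%, 3.72%, 3.74% and 3.34% of all genes tested, and 18 without WT 3, beside 11.4%. Below, settings other than leaving out a single library are named where they ended a call.

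**Figure D2:**
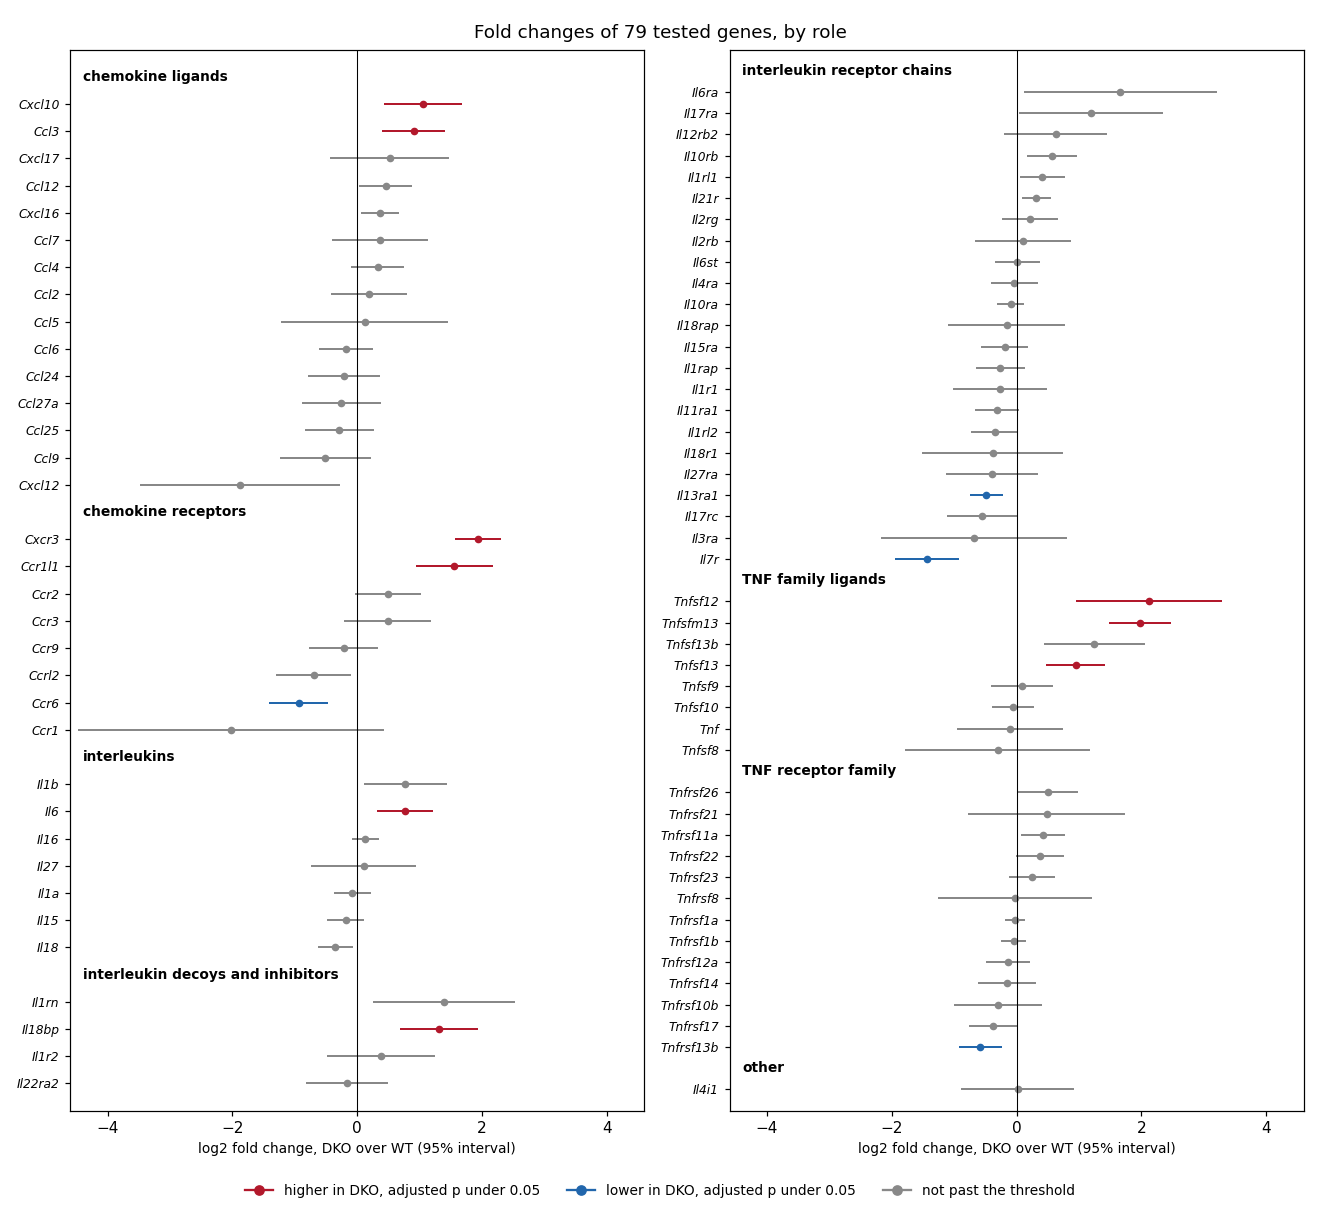
Log2 fold change, DKO over WT, of 79 of the 80 tested genes with its 95% interval, grouped by role and sorted within a role; red marks genes higher and blue genes lower in DKO at an adjusted p under 0.05. Changed genes lie on both sides of 0 among the chemokine receptors, and only on the higher side among the TNF family ligands.

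Promoters are shown for a pair of genes in which a motif of interest stood before the transcription start and whose levels are taken up below. RefSeq promoters (GRCm38.p6, the build of the files; 250 bases before to 50 after the start) were found for 59 of the 81 genes and for 12 of the 14 changed ones. On both strands, the E-box CACGTG, which reads the same on either strand, stood in 7.15% of all 32851 promoters and in 4 of the 76 promoters of these genes (Il1r2, Il6ra, Tnfrsf21 and Tnfrsf8), and in none of the 12 changed genes with an entry. The interferon-type element GAAANNGAAA, whose pattern does not overlap with the E-box, stood in 3.44% of all promoters and in 6 promoters of these genes (Cxcl10, Il1rap, Tnfrsf14, Tnfrsf17, Tnfrsf1b and Tnfsf13b), of which Cxcl10 is among the changed genes. The following stretches lie upstream of the start of Cxcl10 (chr5:92349068-92349127, minus strand) and Il6ra (chr3:89913197-89913245, minus strand), are written 5′ to 3′ along the gene, and carry the motif in capitals.
Cxcl10: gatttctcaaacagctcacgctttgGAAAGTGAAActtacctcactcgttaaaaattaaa
Il6ra: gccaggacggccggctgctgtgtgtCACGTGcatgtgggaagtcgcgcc
The element of Cxcl10 spans bases 213 to 204 before the start, and the E-box of Il6ra spans bases 24 to 19 before the start. A match is a description of the sequence and not evidence of binding.

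Among the 15 chemokine ligands, Ccl3 and Cxcl10 were higher in DKO, none was lower, and 9 of 15 fold changes were above 0 (median 0.19). Ccl3, a ligand of CCR1, stood at 90.8, 79.3, 45.6, 56.7 and 64.1 CPM in DKO 1 to 5, against 32.4, 54.2, 26.5, 35.6 and 30.2 CPM in WT 1 to 5. Only DKO 3 (45.6 CPM) lay below the highest WT library, WT 2 (54.2 CPM). The mean of Ccl3 was 1.88-fold that of WT (log2 fold change 0.91, SE 0.22, edgeR adjusted p = 0.0352). The call was lost when DKO 1, DKO 2, DKO 5, WT 1, WT 4 or WT 5 was left out, and with WT 1 and WT 5 both left out, with adjusted p-values of up to 0.155 over the alternatives. The related chemokine gene Ccl4, which stands next to Ccl3 on chromosome 11, had 172 ± 28.6 CPM in DKO and 137 ± 35.6 CPM in WT (SD, n = 5 each), and its difference did not pass (log2 fold change 0.33, adjusted p = 0.323).

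Cxcl10, an interferon-induced ligand of CXCR3, stood at 7.43, 5.67, 8.28, 9.62 and 6.55 CPM in DKO 1 to 5, against 6.56, 3.35, 2.33, 2.76 and 3.05 CPM in WT 1 to 5. WT 1 (6.56 CPM) lay within the DKO range and apart from the other 4 WT libraries, which reached 3.35 CPM at most. The fold change was 2.08 (log2 fold change 1.05, SE 0.28, edgeR adjusted p = 0.0457), and it lost the call when any single library except WT 1 was left out, and with the size factors of DESeq2 (RLE), with upper-quartile factors or without scaling factors (adjusted p up to 0.102 over the alternatives). The call was also lost with the replicate number as a block (adjusted p = 0.0766). Cxcl10 lies inside the span of Art3, an ADP-ribosyltransferase gene on the opposite strand, whose count was also higher in DKO (5.77 ± 0.799 CPM in DKO and 0.802 ± 0.302 CPM in WT, SD, n = 5 each, with a log2 fold change of 2.84 and an adjusted p of 1.70e-04). The library kit does not mark the strand, so strand cannot divide reads between these genes, and whether their exons overlap was not examined.

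The other chemokine ligands did not pass. The ligands of CCR2 had modest differences: Ccl2 had 9.89 ± 3.26 CPM in DKO and 8.67 ± 2.72 CPM in WT (SD, n = 5 each), Ccl12 had 70.5 ± 5.76 CPM in DKO and 51.4 ± 16.3 CPM in WT (SD, n = 5 each), and Ccl7 spanned 0.723 to 1.63 CPM in DKO libraries and 0.356 to 1.37 CPM in WT libraries. Their log2 fold changes were 0.19 (95% interval -0.41 to 0.78) for Ccl2, 0.46 (95% interval 0.05 to 0.86) for Ccl12 and 0.37 (95% interval -0.39 to 1.13) for Ccl7. Cxcl16, a membrane-bound ligand of CXCR6, had 122.5 ± 17.8 CPM in DKO and 94.9 ± 14.6 CPM in WT (SD, n = 5 each), with a log2 fold change of 0.37 (95% interval 0.08 to 0.66). Ccl6 and Ccl9, mouse CC chemokines that bind CCR1, were abundant and differed between library numbers, as described with Ccr1. Cxcl12, the ligand of CXCR4, was near the detection limit in DKO (0.128 to 0.595 CPM in DKO libraries and 0.252 to 3.20 CPM in WT libraries). Ccl5, Ccl24, Ccl25, Ccl27a and Cxcl17 had adjusted p-values of at least 0.493. Of the 8 measured chemokines in the cluster on chromosome 11 (chr11:82035571-83664683), which are Ccl2, Ccl7, Ccl12, Ccl5, Ccl9, Ccl6, Ccl3 and Ccl4, Ccl3 alone passed.

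Chemokine receptors held changes in both directions, 2 higher and 2 lower of 9 tested. Cxcr3, the receptor for CXCL9, CXCL10 and CXCL11, best known from T cells, stood at 20.4, 20.7, 25.5, 19.4 and 21.2 CPM in DKO 1 to 5, against 4.58, 6.49, 4.23, 5.72 and 6.92 CPM in WT 1 to 5. Every DKO library was at least 19.4 CPM and every WT library at most 6.92 CPM. The DKO mean was 3.83-fold the WT mean (log2 fold change 1.94, SE 0.16, edgeR adjusted p = 4.37e-05), the smallest p among the 80 genes. Ccr1l1, a gene related to Ccr1 and next to it on chromosome 9, stood at 11.7, 11.3, 13.9, 19.3 and 21.0 CPM in DKO 1 to 5, against 4.97, 4.24, 3.04, 5.51 and 8.43 CPM in WT 1 to 5. Its ranges did not overlap either, with a 2.95-fold difference (log2 fold change 1.56, SE 0.28, edgeR adjusted p = 0.00749). Both calls held under the 22 alternatives that used both sets of library numbers, and in numbers 1 to 3 alone (adjusted p = 0.00849 for Cxcr3 and 0.0230 for Ccr1l1), but not in numbers 4 and 5 alone (adjusted p = 0.0568 and 0.0997).

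Ccr6, the receptor for CCL20, stood at 2.05, 2.32, 1.29, 2.61 and 2.55 CPM in DKO 1 to 5, against 3.53, 4.37, 3.91, 4.61 and 4.36 CPM in WT 1 to 5. These low ranges did not overlap, and WT was 1.92-fold above DKO (log2 fold change -0.94, SE 0.21, edgeR adjusted p = 0.0223), with the call lost when DKO 1, DKO 2, WT 2, WT 4 or WT 5 was left out, with WT 1 and WT 5 both left out and with a length offset (adjusted p up to 0.0637).

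The remaining chemokine receptors did not pass. Ccrl2, an atypical receptor that binds chemerin, had 48.2 ± 7.75 CPM in DKO and 78.3 ± 35.6 CPM in WT (SD, n = 5 each), with the ranges overlapping and a log2 fold change of -0.70 (95% interval -1.29 to -0.11). Ccr2, the monocyte receptor for CCL2, had 5.21 ± 1.07 CPM in DKO and 3.68 ± 1.10 CPM in WT (SD, n = 5 each), with a log2 fold change of 0.50 (95% interval -0.01 to 1.01). Cxcr5, the receptor for CXCL13, was at most 0.858 CPM in a DKO library and 1.07 CPM in a WT library and was too low to test. Ccr3 and Ccr9 had log2 fold changes of 0.49 and -0.22. Ccr9, Ccr1, Ccr1l1, Ccr3 and Ccr2 lie close together on chromosome 9, and of these Ccr1l1 passed. These paralogs resemble one another in sequence, and the division of reads that fit more than 1 of them rests on the authors' tool.

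Since Cxcr3, Ccr6 and Il7r are known from lymphocytes and Ccr2 from monocytes, the markers of these cells were set beside them. The 17 T and NK cell markers summed to 2.30 to 3.66 CPM in DKO libraries and 2.13 to 4.29 CPM in WT libraries, and 7 of them, among them Cd2, Cd3g, Trac and Trbc1, were at 0 in every library. The 2 that could be tested, Cd3d (log2 fold change 0.42, adjusted p = 0.403) and Cd5 (log2 fold change -0.17, adjusted p = 0.753), did not pass. Cxcr3 alone had 19.4 to 25.5 CPM in DKO libraries. The 9 monocyte markers, of which Ccr2 is itself one of the genes described, summed to 27.6 to 36.9 CPM in DKO libraries and 15.9 to 20.1 CPM in WT libraries, without overlap, with Ly6a (log2 fold change 0.74, adjusted p = 0.0315) and Cd44 (log2 fold change 2.45, adjusted p = 0.00314) higher in DKO, Chil3 at 0 in every library, and Ly6c2 and Vcan each below 0.1 CPM on average in both genotypes. The 7 astrocyte markers summed to 158 to 210 CPM in DKO libraries and 243 to 398 CPM in WT libraries, mostly from the glutamate transporter gene Slc1a3, which was lower in DKO (log2 fold change -0.83, adjusted p = 0.00401). Of the dendritic cell markers H2-Ab1, an MHC class II chain, was higher in DKO (log2 fold change 1.21, adjusted p = 0.00248), the 8 markers summing to 1142 to 2114 CPM in DKO libraries and 960 to 1879 CPM in WT libraries. The part of these markers in the results was not tested. In bulk samples fewer cells of a type and less RNA per cell cannot be told apart.

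**Figure D3:**
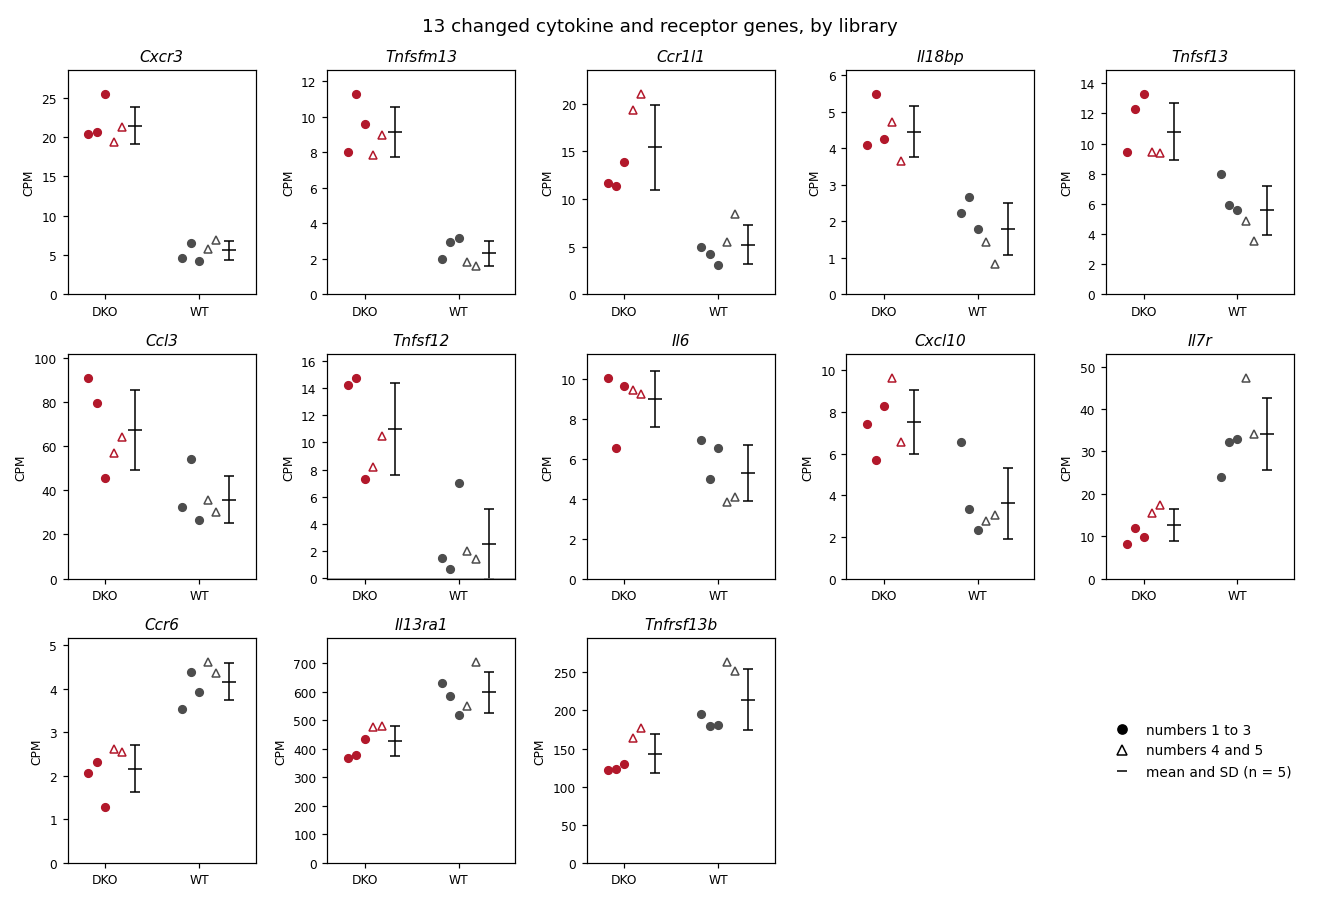
CPM of 13 of the 14 changed genes in each library, DKO (red) left of WT (grey); filled circles are libraries numbered 1 to 3, open triangles those numbered 4 and 5, and bars give the mean and SD of 5 libraries. Cxcr3, Tnfsfm13, Ccr1l1 and Il7r separate the genotypes in every library, whereas Ccl3, Cxcl10 and Il6 have libraries of the other genotype within their range.

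Of the 7 interleukins, Il6 was higher in DKO and none was lower. Il6, a cytokine of the gp130 family, stood at 10.04, 6.56, 9.65, 9.42 and 9.23 CPM in DKO 1 to 5, against 6.95, 4.97, 6.52, 3.82 and 4.10 CPM in WT 1 to 5. DKO 2 (6.56 CPM) fell inside the WT range, while the other 4 DKO libraries lay at 9.23 to 10.04 CPM. The difference was 1.70-fold (log2 fold change 0.77, SE 0.20, edgeR adjusted p = 0.0437), and the call was lost when DKO 1, DKO 3, DKO 4, DKO 5, WT 2, WT 4 or WT 5 was left out, with WT 1 and WT 5 both left out, with upper-quartile factors, without scaling factors, on log2 TPM and without the count filter (adjusted p up to 0.1101). The call was also lost with the replicate number as a block (adjusted p = 0.0674). Il1b, the inflammasome-processed cytokine, had 7.16 ± 2.81 CPM in DKO and 4.19 ± 1.08 CPM in WT (SD, n = 5 each), a log2 fold change of 0.77 (95% interval 0.13 to 1.42) that did not pass (adjusted p = 0.143). Within numbers 1 to 3 it was at 8.34 to 10.3 CPM in DKO and 2.77 to 5.33 CPM in WT, and within numbers 4 and 5 at 3.63 and 4.85 CPM in DKO and 3.41 and 4.36 CPM in WT, with an unadjusted p for the difference between the sets of 0.0553 and an adjusted p of 0.995.

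The other interleukins did not pass over all libraries. Il16, a chemoattractant cytokine that signals through CD4, had 508 ± 26.5 CPM in DKO and 464 ± 52.6 CPM in WT (SD, n = 5 each), and its log2 fold change was 0.13 (95% interval -0.07 to 0.33). Il1a, the membrane-associated interleukin-1, had 102 ± 12.9 CPM in DKO and 108 ± 17.4 CPM in WT (SD, n = 5 each), with a log2 fold change of -0.08 (95% interval -0.36 to 0.21). Il18, a further cytokine of the interleukin-1 family, had 29.5 ± 3.81 CPM in DKO and 37.5 ± 4.92 CPM in WT (SD, n = 5 each). Its log2 fold change of -0.35 (95% interval -0.62 to -0.08) did not pass (adjusted p = 0.116), but it passed with a term for the library numbers (adjusted p = 0.0367), without scaling factors and on log2 TPM. Il15 and Il27 had log2 fold changes of -0.19 and 0.10. Il4i1, which shares only the symbol and encodes an amino acid oxidase, had 22.3 ± 12.8 CPM in DKO and 22.1 ± 9.85 CPM in WT (SD, n = 5 each).

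Il18bp, the secreted protein that binds and blocks interleukin-18, was the changed gene among the 4 decoys and inhibitors. It stood at 4.10, 5.49, 4.25, 4.73 and 3.66 CPM in DKO 1 to 5, against 2.23, 2.67, 1.78, 1.44 and 0.828 CPM in WT 1 to 5. All 5 DKO libraries lay above all 5 WT libraries, with a 2.48-fold difference (log2 fold change 1.31, SE 0.28, edgeR adjusted p = 0.0199). The call was lost without DKO 2 or WT 4 (adjusted p up to 0.0576). Il18bp overlaps Numa1 on the opposite strand, and Numa1 did not pass (57.7 CPM in DKO and 49.8 CPM in WT, adjusted p = 0.817). Il1rn, the interleukin-1 receptor antagonist, was low and varied, with 0.638 to 2.22 CPM in DKO libraries and 0.212 to 1.01 CPM in WT libraries (log2 fold change 1.39 (95% interval 0.27 to 2.52), adjusted p = 0.133). The decoy receptor Il1r2 and the soluble interleukin-22 binder Il22ra2 were each below 1.5 CPM in every library, with log2 fold changes of 0.39 and -0.16.

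The 23 interleukin receptor chains included 2 that were lower and none that was higher in DKO, with a median log2 fold change of -0.16. Il7r, the alpha chain of the interleukin-7 receptor, stood at 8.29, 11.96, 9.87, 15.4 and 17.4 CPM in DKO 1 to 5, against 23.9, 32.2, 33.0, 47.3 and 34.1 CPM in WT 1 to 5. The highest DKO library (17.4 CPM) lay below the lowest WT library (23.9 CPM), and WT was 2.71-fold above DKO (log2 fold change -1.44, SE 0.23, edgeR adjusted p = 0.00369). The call held under the 22 alternatives over both sets of numbers and in numbers 1 to 3 alone (adjusted p = 0.0148), but not in numbers 4 and 5 alone (adjusted p = 0.0898). Il13ra1, a chain of the receptors for interleukins 4 and 13, stood at 369, 378, 435, 475 and 478 CPM in DKO 1 to 5, against 631, 585, 516, 549 and 703 CPM in WT 1 to 5. Its ranges did not overlap and the difference was 1.40-fold (log2 fold change -0.48, SE 0.11, edgeR adjusted p = 0.0273), with the call lost without DKO 1, DKO 2, WT 1, WT 2 or WT 5, and without both WT 1 and WT 5 (adjusted p up to 0.123). The call was also lost with the replicate number as a block (adjusted p = 0.0583). Il4ra, the partner chain of IL13RA1, had 409 ± 51.2 CPM in DKO and 419 ± 112 CPM in WT (SD, n = 5 each), with a log2 fold change of -0.04 (95% interval -0.40 to 0.32).

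Shared and partner receptor chains did not pass. Il6st (gp130), the signalling chain for interleukin-6, had 657 ± 86.3 CPM in DKO and 651 ± 149 CPM in WT (SD, n = 5 each), and its log2 fold change was 0.01 (95% interval -0.33 to 0.35). Il10ra, the ligand-binding chain for the anti-inflammatory interleukin-10, had 594 ± 13.2 CPM in DKO and 636 ± 78.2 CPM in WT (SD, n = 5 each), with a log2 fold change of -0.10 (95% interval -0.30 to 0.10). Il2rg, the common gamma chain that pairs with IL7R, had 11.8 ± 1.03 CPM in DKO and 10.2 ± 3.49 CPM in WT (SD, n = 5 each), with a log2 fold change of 0.22 (95% interval -0.22 to 0.65). Il21r, another partner of the gamma chain, had 381 ± 23.5 CPM in DKO and 307 ± 42.4 CPM in WT (SD, n = 5 each), and its log2 fold change of 0.32 (95% interval 0.10 to 0.53) did not pass (adjusted p = 0.0862). Il21r did pass with a length offset, without WT 5, and without both WT 1 and WT 5. The interleukin-1 receptor chains Il1r1, Il1rap, Il1rl1 and Il1rl2 had log2 fold changes of -0.27, -0.26, 0.41 and -0.35, none of which passed. The remaining chains, Il2rb, Il11ra1, Il12rb2, Il15ra, Il17rc, Il18r1, Il18rap and Il27ra, had log2 fold changes of -0.56 to 0.63, and none passed. Over all roles, 10 genes had a 95% interval that lay within 0.5 of 0 on the log2 scale: Il10ra, Il15, Il16, Il1a, Il4ra, Il6st, Tnfrsf12a, Tnfrsf1a, Tnfrsf1b and Tnfsf10.

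Il10rb, the second chain of the interleukin-10 receptor, had no overlap between the genotypes without passing the test. It stood at 463, 452, 433, 446 and 443 CPM in DKO 1 to 5, against 227, 349.7, 404, 332 and 194 CPM in WT 1 to 5. DKO libraries spanned 433 to 463 CPM, a narrow range beside that of WT libraries at 194 to 404 CPM (log2 fold change 0.57, SE 0.18, edgeR adjusted p = 0.0797). With DESeq2 Il10rb passed over all libraries. Il6ra, the interleukin-6 binding chain, stood at 208, 226, 107, 166 and 190.3 CPM in DKO 1 to 5, against 10.6, 41.9, 188, 33.0 and 10.4 CPM in WT 1 to 5. The 4 WT libraries other than WT 3 held at most 41.9 CPM, and WT 3 lay at 188 CPM, inside the DKO range of 107 to 226 CPM (log2 fold change 1.66, SE 0.70, edgeR adjusted p = 0.180). With limma voom and on log2 TPM Il6ra passed over all libraries. Il17ra, the common interleukin-17 receptor chain, stood at 413, 377, 467, 329.9 and 315 CPM in DKO 1 to 5, against 45.1, 259, 358, 131 and 41.4 CPM in WT 1 to 5, again with WT 3 inside the DKO range (log2 fold change 1.19, SE 0.52, edgeR adjusted p = 0.198).

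The same order of WT libraries was seen in Tnfrsf21 (death receptor 6), with 543, 494, 505, 412 and 396 CPM in DKO 1 to 5, against 63.1, 548, 654, 352 and 62.8 CPM in WT 1 to 5 (log2 fold change 0.49, SE 0.57, edgeR adjusted p = 0.644). In these genes WT 1 and WT 5 were lowest, and WT 3 was highest. Beside them, Gm23935, a small noncoding RNA gene, accounted for 23.2% to 26.6% of the deposited TPM in DKO libraries, 20.3% in WT 3 and 2.85% to 6.60% in the other WT libraries. The part of this library difference in the values was not tested. Without WT 3, the log2 fold changes were 2.91 (adjusted p = 0.00156) for Il6ra, 1.67 (adjusted p = 0.0456) for Il17ra, 0.70 (adjusted p = 0.0183) for Il10rb and 0.87 (adjusted p = 0.353) for Tnfrsf21. Without WT 3, 18 of the 80 genes and 11.4% of all genes passed, 13 of the 14 among them, and the 5 further genes were Ccrl2, Il6ra, Il10rb, Il17ra and Tnfsf13b. Without WT 1 and WT 5, 9 passed, 8 of the 14 among them, beside 3.12% of all genes. Il6ra, Il17ra, Il10rb and Tnfrsf21 did not pass without WT 1 and WT 5.

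**Figure D4:**
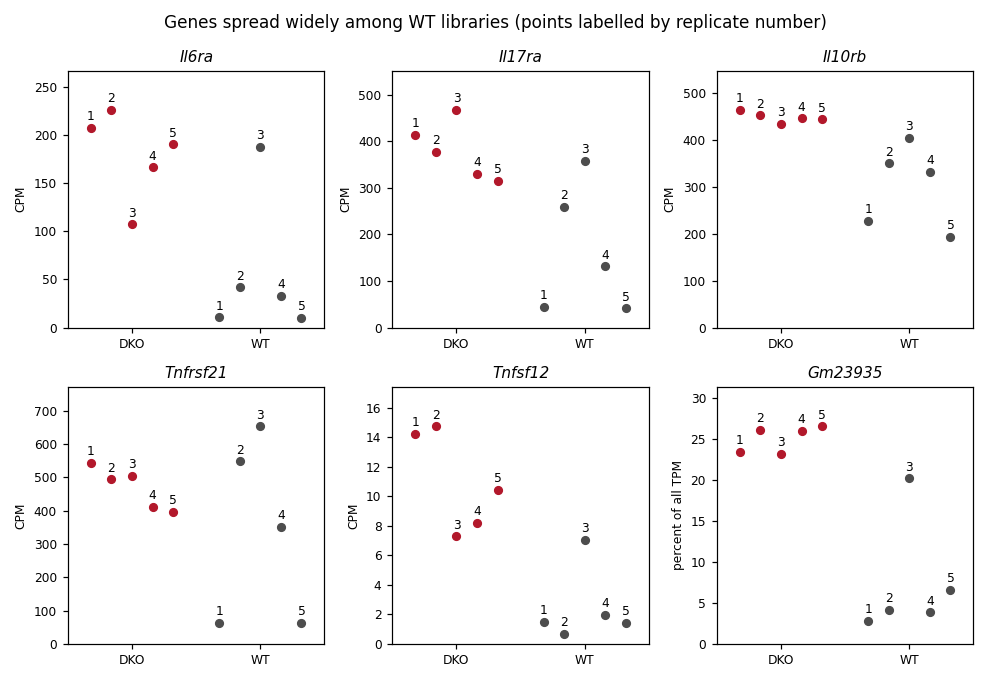
CPM of Il6ra, Il17ra, Il10rb, Tnfrsf21 and Tnfsf12, and the percent of all TPM taken by Gm23935, in each DKO library (red) and each WT library (grey), labelled by replicate number. WT 3 lies just below or within the DKO range in each panel except that of Tnfrsf21, where it lies above it, with 20.3% for Gm23935, and WT 1 and WT 5 lie far below DKO in the panels of Il6ra, Il17ra and Tnfrsf21.

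Of the 8 TNF family ligands, 3 were higher in DKO and none was lower, and these 3 are overlapping genes at a single place. Tnfsf12 (TWEAK), Tnfsf13 (APRIL) and Tnfsfm13, which spans both and joins parts of them, lie within chr11:69682577-69696098, so the share of reads that each was given rests on the same tool. Tnfsfm13 stood at 7.99, 11.3, 9.61, 7.83 and 8.97 CPM in DKO 1 to 5, against 2.02, 2.97, 3.16, 1.85 and 1.58 CPM in WT 1 to 5. Tnfsf13 stood at 9.44, 12.3, 13.3, 9.42 and 9.40 CPM in DKO 1 to 5, against 7.999, 5.94, 5.57, 4.85 and 3.57 CPM in WT 1 to 5. Neither gene had overlapping ranges, with fold differences of 3.94 for Tnfsfm13 (log2 fold change 1.98, SE 0.22, edgeR adjusted p = 3.15e-04) and 1.93 for Tnfsf13 (log2 fold change 0.95, SE 0.21, edgeR adjusted p = 0.0230).

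Tnfsf12 stood at 14.3, 14.8, 7.29, 8.19 and 10.5 CPM in DKO 1 to 5, against 1.48, 0.679, 7.03, 1.97 and 1.43 CPM in WT 1 to 5. WT 3 (7.03 CPM) reached nearly the lowest DKO library, DKO 3 (7.29 CPM), while the other WT libraries held at most 1.97 CPM (log2 fold change 2.12, SE 0.53, edgeR adjusted p = 0.0366). The call of Tnfsf12 was lost without DKO 1, DKO 2, DKO 5, WT 1, WT 2, WT 4 or WT 5, and without both WT 1 and WT 5 (adjusted p up to 0.153). It was also lost with the replicate number as a block (adjusted p = 0.0746). That of Tnfsf13 was lost without DKO 2, WT 2 or WT 4 (adjusted p up to 0.0644). Tnfsfm13 passed under the 22 alternatives over both sets of numbers and in numbers 1 to 3 alone (adjusted p = 0.0181), but not in numbers 4 and 5 alone (adjusted p = 0.0531). With the reads of the 3 genes summed, an alternative chosen after seeing the data, the place held 30.9 ± 4.77 CPM in DKO and 10.4 ± 3.47 CPM in WT (SD, n = 5 each), a log2 fold change of 1.57 with an SE of 0.21 (edgeR adjusted p = 0.00146), and 12 genes in place of 14 were changed. The average transcript length assigned to Tnfsfm13 was 1770 to 1893 bases in DKO libraries and 2235 bases in each WT library (exact two-sided permutation p = 0.00794, the smallest that 5 against 5 libraries allow). Lengths without overlap were found in 1.04% of all genes tested, and Il6ra was the other one here, with 3569 to 3646 bases in DKO libraries and 3651 to 3983 bases in WT libraries.

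Tnfsf13b (BAFF), which with APRIL supports B cells, stood at 50.5, 55.9, 51.3, 20.9 and 20.7 CPM in DKO 1 to 5, against 17.4, 19.7, 25.7, 13.3 and 7.90 CPM in WT 1 to 5. DKO lay above WT within numbers 1 to 3 and within numbers 4 and 5, but DKO 4 and DKO 5 (20.9 and 20.7 CPM) lay below WT 3 (25.7 CPM). The difference did not pass over all libraries (log2 fold change 1.24, SE 0.36, edgeR adjusted p = 0.0665), and passed with a term for the library numbers (log2 fold change 1.19, adjusted p = 0.00170). It also passed with DESeq2, without the count filter and with the replicate number as a block. Tnf itself was at 1.67 to 3.70 CPM in DKO libraries and 0.978 to 4.499 CPM in WT libraries, with a log2 fold change of -0.10 (95% interval -0.94 to 0.73). Tnfsf10 (TRAIL) had 13.4 ± 0.529 CPM in DKO and 13.9 ± 2.83 CPM in WT (SD, n = 5 each), a log2 fold change of -0.06 (95% interval -0.38 to 0.26). Tnfsf8 (CD30 ligand) and Tnfsf9 (4-1BB ligand) had log2 fold changes of -0.30 and 0.09.

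Among the 13 TNF receptor family genes, Tnfrsf13b was lower in DKO and none was higher. Tnfrsf13b (TACI), which binds BAFF and APRIL, stood at 122, 123.0, 129, 163 and 177 CPM in DKO 1 to 5, against 196, 179.7, 181, 263 and 252 CPM in WT 1 to 5. The ranges did not overlap, although DKO 5 (177 CPM) came close to WT 2 (179.7 CPM), and the difference was 1.499-fold (log2 fold change -0.58, SE 0.15, edgeR adjusted p = 0.0432). The call was lost without DKO 1, DKO 2, DKO 3, WT 1, WT 2, WT 4 or WT 5, without both WT 1 and WT 5 and with a length offset (adjusted p up to 0.132). Within library numbers the log2 fold changes were -0.58 in numbers 1 to 3 and -0.60 in numbers 4 and 5. Tnfrsf17 (BCMA), a related receptor for the same ligands, had 27.7 ± 5.94 CPM in DKO and 36.1 ± 6.53 CPM in WT (SD, n = 5 each), and its log2 fold change of -0.38 (95% interval -0.75 to -0.02) did not pass (adjusted p = 0.198) but passed with a term for the library numbers (adjusted p = 0.0292). The B cell marker Pax5 was at 0 in every library and Ms4a1 averaged below 0.1 CPM in both genotypes, while Ighm (622 CPM in DKO and 489.8 CPM in WT) made up most of the B cell marker sum of 541 to 913 CPM in DKO libraries and 424 to 695 CPM in WT libraries.

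The receptors for TNF itself were among the 10 genes with narrow intervals. Tnfrsf1a stood at 279, 264, 291, 287 and 286 CPM in DKO 1 to 5, against 291, 296, 294, 269 and 284 CPM in WT 1 to 5, and Tnfrsf1b had 788 ± 18.8 CPM in DKO and 813 ± 83.8 CPM in WT (SD, n = 5 each). Their log2 fold changes were -0.03 (95% interval -0.17 to 0.12) and -0.05 (95% interval -0.23 to 0.14). Tnfrsf11a (RANK), the receptor for the osteoclast factor RANKL, had 24.1 ± 4.21 CPM in DKO and 17.9 ± 3.23 CPM in WT (SD, n = 5 each), with a log2 fold change of 0.43 (95% interval 0.09 to 0.77) that did not pass. The decoy TRAIL receptors of the mouse, Tnfrsf22 and Tnfrsf23, and their neighbour Tnfrsf26 had log2 fold changes of 0.38, 0.25 and 0.50. The other genes of the family, Tnfrsf8, Tnfrsf10b, Tnfrsf12a and Tnfrsf14, had fold changes of -0.30 to -0.02 on the log2 scale.

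Ccr1 had the lowest log2 fold change of the 80 genes without passing the test. Ccr1, a receptor for CCL3, CCL6 and CCL9, stood at 0.555, 0.312, 0.987, 27.6 and 30.2 CPM in DKO 1 to 5, against 31.2, 16.4, 14.1, 80.5 and 99.8 CPM in WT 1 to 5. Within numbers 1 to 3 and within numbers 4 and 5 every DKO library lay below every WT library, but DKO 4 and DKO 5 overlapped with WT 1, WT 2 and WT 3 (log2 fold change -2.02, SE 1.11, edgeR adjusted p = 0.300). DKO 1, DKO 2 and DKO 3 held 13, 7 and 23 counts. The log2 fold change was -5.04 in numbers 1 to 3 (adjusted p = 0.00849), -1.65 in numbers 4 and 5 (adjusted p = 0.0531), and -3.41 over all libraries with a term for the numbers (adjusted p = 0.0108). The difference between the 2 sets had an unadjusted p of 3.04e-04 and an adjusted p of 0.318.

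Ccl9 and Ccl6, ligands of this receptor, had like differences between library numbers. Ccl9 stood at 135, 149.8, 117, 328 and 319 CPM in DKO 1 to 5, against 235, 247, 212, 425 and 373 CPM in WT 1 to 5. Within numbers 1 to 3 and within numbers 4 and 5, every DKO library lay below every WT library. Its log2 fold change was -0.51 over all libraries (adjusted p = 0.368) and -0.59 with the term for the numbers (adjusted p = 0.0100). Ccl9 also passed with the replicate number as a block. Ccl6 had log2 fold changes of -0.28 in numbers 1 to 3 and -0.08 in numbers 4 and 5 and did not pass with the term either (adjusted p = 0.200).

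Over both genotypes, 12 of these genes and 3.38% of all genes tested differed between numbers 4 and 5 and numbers 1 to 3 at an adjusted p under 0.05. Ccl6, Ccl9, Ccr1, Ccr1l1, Cxcl12, Il11ra1, Il4i1, Tnfrsf13b and Tnfrsf17 were higher in numbers 4 and 5, and Il18rap, Tnfsf13b and Tnfsf8 were lower. With the term for the numbers, 22 of the 80 genes and 10.3% of all genes tested differed between DKO and WT, the 22 being 11 higher and 11 lower, and these held all 14 genes of the first count. The 8 further genes were Ccl9, Ccr1, Cxcl12, Cxcl16, Il11ra1, Il18, Tnfrsf17 and Tnfsf13b. Cxcl12 had reached the read limit through its WT libraries (a mean of 8.6 reads in DKO and 34.6 reads in WT), so its lower level in DKO is no independent result. All 14 had the same direction within numbers 1 to 3 as within numbers 4 and 5, for example 2.12 in numbers 1 to 3 and 1.68 in numbers 4 and 5 for Cxcr3 and -1.57 in numbers 1 to 3 and -1.31 in numbers 4 and 5 for Il7r. The 14 were called on these same libraries, so the shared direction is no separate test. In the libraries numbered 1 to 3 alone 9 genes passed, 6 of the 14 among them, beside 2.10% of all genes. In numbers 4 and 5 alone none passed by edgeR, beside 0.403% of all genes.

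Il3ra, the interleukin-3 receptor alpha chain, had fold changes of opposite sign in the 2 sets of library numbers. In numbers 1 to 3 it was at 2.22, 2.90 and 1.46 CPM in DKO and 0.432, 1.02 and 1.03 CPM in WT, and in numbers 4 and 5 at 1.43 and 1.45 CPM in DKO and 8.60 and 4.10 CPM in WT. The log2 fold changes were 1.40 in numbers 1 to 3 and -2.14 in numbers 4 and 5, and their difference had an unadjusted p of 5.10e-04 and an adjusted p of 0.418. For the difference between the sets, none of the cytokine and receptor genes had an adjusted p under 0.05 by edgeR, beside 6 genes among all those tested.

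**Figure D5:**
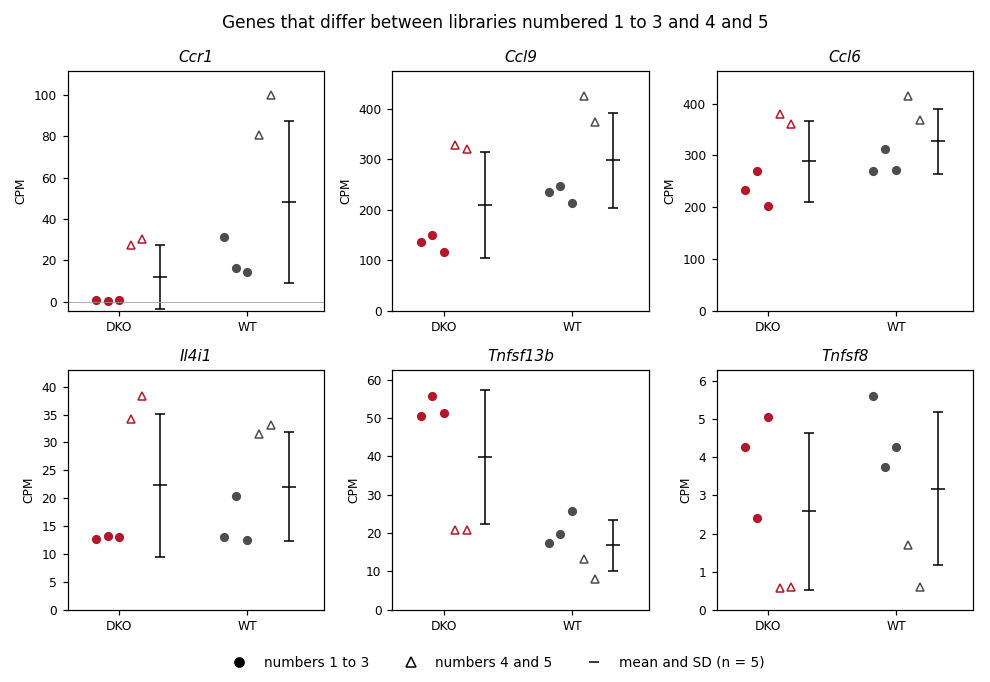
CPM of 6 genes that differ between libraries numbered 1 to 3 (filled circles) and numbered 4 and 5 (open triangles), DKO (red) left of WT (grey), with the mean and SD of 5 libraries; bars may reach below 0, which no CPM can. Ccr1 is below 1 CPM in DKO 1, DKO 2 and DKO 3 and at 27.6 and 30.2 CPM in DKO 4 and DKO 5, and Tnfsf13b is lower in numbers 4 and 5 of both genotypes.

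Genes that work with these ligands and receptors but carry other symbols were compared in the same fit. In 4 lists, 7 were higher and 3 lower in DKO of 95 tested, or 10.5% in either direction, beside 4.34% higher, 1.85% lower and 6.19% in either direction of all genes tested. Of 26 tested chemokine and cytokine genes with other symbols, Pf4 (the platelet chemokine CXCL4) and Crlf2 (a receptor chain for TSLP) were higher and Ackr3 (the scavenging receptor for CXCL12) was lower. Pf4 had 3.91 ± 1.55 CPM in DKO and 0.149 ± 0.138 CPM in WT (SD, n = 5 each, with an adjusted p of 5.18e-04), with at most 0.376 CPM in a WT library and at least 2.10 CPM in a DKO library. Ackr3 had 1.11 ± 0.308 CPM in DKO and 6.26 ± 3.08 CPM in WT (SD, n = 5 each, with a log2 fold change of -2.48, adjusted p = 0.00106), and Crlf2 had 25.3 ± 2.88 CPM in DKO and 14.8 ± 2.74 CPM in WT (log2 fold change 0.77, adjusted p = 0.0104). Pf4 is also a marker of border-associated macrophages, of which Cd163 and Lyve1 were at 0 in every library and Mrc1 had 11.1 ± 8.65 CPM in DKO and 8.19 ± 4.79 CPM in WT (log2 fold change 0.43, adjusted p = 0.667). The 8 such markers summed to 7.38 to 28.0 CPM in DKO libraries and 5.22 to 16.2 CPM in WT libraries, and their part in the result was not tested.

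Of 35 tested genes of NF-kB and TNF signalling, 4 were higher and 1 was lower. Nfkb1, which encodes the p105 and p50 subunit, was lower (138 ± 16.0 CPM in DKO and 197 ± 15.3 CPM in WT, SD, n = 5 each, with a log2 fold change of -0.51, adjusted p = 0.0116), and Nfkb2, which encodes p100 and p52, was higher (29.1 ± 2.33 CPM in DKO and 21.1 ± 2.62 CPM in WT; log2 fold change 0.46, adjusted p = 0.0323). Ripk3, a kinase of necroptosis, and Chuk, the kinase IKK alpha, were higher (log2 fold change 0.58, adjusted p = 0.0145 and log2 fold change 1.73, adjusted p = 0.0381), and for Chuk the DKO libraries held 15.2 to 31.1 CPM, WT 3 held 17.7 CPM and the other WT libraries held 2.95 to 6.66 CPM. The remaining gene, Relb, the partner of p52, was higher (log2 fold change 1.62, adjusted p = 0.0393) and is named because the count is small. Without WT 3 the log2 fold changes were 2.37 (adjusted p = 2.38e-04) for Chuk and 2.01 (adjusted p = 0.00499) for Relb. This leaves out the highest WT library for both genes, and values without WT 1 and WT 5 are not given for them. Of 11 tested genes of interleukin-1 family signalling, the inflammasome sensor Nlrp3 was lower (12.3 ± 2.04 CPM in DKO and 18.7 ± 3.49 CPM in WT; log2 fold change -0.61, adjusted p = 0.0460). Of 23 tested genes of JAK-STAT signalling, 1 was higher and none was lower. The median log2 fold changes of the 4 lists were 0.17, 0.0025, -0.11 and 0.094 in this order, beside -0.0095 over all genes tested. The number of higher genes in these lists was 3 to 14 when single libraries were left out, with 14 without WT 3, 3 without DKO 1, WT 1 or WT 5, and 4 without DKO 2, DKO 4, DKO 5, WT 2 or WT 4. In these fits 2.83% to 11.4% of all genes tested passed in either direction.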

How the data were processed

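Sorted microglia of 5 DKO and 5 WT libraries were profiled by poly(A) RNA-seq (TruSeq RNA v2, a kit that does not mark strand). The authors deposited 1 table per library, with a length, an effective length, TPM and an estimated count of reads for each gene. The submitters' processing notes name FastQC 0.11.8, cutadapt 2.6, STAR 2.5.3a and mm10. The sources used here give neither the quantifier with its annotation release and strand setting nor an RNA integrity value. All 81 genes matched GENCODE M21 (GRCm38), from which positions and overlaps were taken.

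Groups came from the titles. The authors' estimated counts were rounded, filtered (edgeR filterByExpr, minimum count 10), scaled by trimmed mean of M values (TMM) and tested with edgeR 4.0.16 in R 4.3.3 by the quasi-likelihood F test for DKO over WT, and p-values were adjusted by Benjamini-Hochberg over 13916 genes. Every adjusted p comes from this test unless another is named. The SE was taken as the size of the log2 fold change divided by the square root of F, and CPM uses the TMM-scaled library size. The authors' TPM, rescaled in each library after Gm23935 was left out, served only for levels between genes and for an alternative. The study's own mixed model (dream) was not used here. The scripts were tested on simulated data.

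Genes were named if they passed, led their role in mean CPM (3 per role), did not overlap between genotypes, stood at the read limit or are well known inflammatory cytokines, with up to 4 passing genes per related list; others, among them those that differ between library numbers or vary among WT libraries, were chosen after their values were seen. The genes, the lists and the division by library number were chosen with earlier results of these data known. Totals were 22483284 to 26109349 counts, where 3 counts are 0.108 to 0.134 CPM. The 95% intervals come from the edgeR fit and so include the spread between libraries, and the biological coefficient of variation was 28.0%. Alternatives changed the scaling, tool, filter, unit, length offset, replicate block, a term for library numbers or the libraries used (22 in all), and 3 were added after seeing the data: numbers 1 to 3 only, numbers 4 and 5 only, and the reads of Tnfsf12, Tnfsf13 and Tnfsfm13 summed. Deviations of same-numbered libraries of the 2 genotypes had correlations of -0.235 to 0.199, so the numbers were not used as pairs. Numbers 4 and 5 did differ from numbers 1 to 3 in both genotypes, which the main test does not model. Values of some genes are not reported here.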

Additional observations from a re-analysis of the deposited data

Results flagged for a closer look

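In 8 of 162 groups of 5 libraries (81 genes in 2 genotypes) 1 library stood apart from the other 4, with a gap of over 0.71 of the group's whole range, where chance gives about 1 in 20 groups. WT 3 was the highest library for Il6ra (188 CPM, the other WT libraries at 10.4 to 41.9 CPM) and for Tnfsf12 (7.03 CPM, the others at 0.679 to 1.97 CPM), inside the DKO range of Il6ra and just below that of Tnfsf12. WT 1 was highest for Cxcl10 (6.56 CPM, the other WT libraries at 2.33 to 3.35 CPM), and DKO 2 was lowest for Il6 (6.56 CPM, the other DKO libraries at 9.23 to 10.04 CPM). DKO 3 was highest for Ccl25 (11.5 CPM) and for Ccl5 (1.89 CPM) among DKO libraries. WT 4 was highest for Il2rg (16.3 CPM) and WT 5 for Il17rc (1.43 CPM) among WT libraries. The cause of these values was not tested.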

How the results depend on the processing

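Of the 14 changed genes, 5 passed, among them Cxcr3, Ccr1l1, Il7r and Tnfsfm13, under the 22 alternatives that used both sets of library numbers, and none of the 14 turned direction under any of these. The number of genes called over all 13916 was 862, and it was 1629 with DESeq2, 547 with the replicate block, 1431 with the term for library numbers, 449 without WT 1 and WT 5, and 402 to 1618 when single libraries were left out. Among the cytokine and receptor genes, 9 were higher and 5 lower, beside 6.19% of all genes in either direction. Leaving out single libraries gave 4 to 12 higher and 2 to 6 lower, beside 2.83% to 11.4% of all genes. The length offset gave 3 lower (beside 5.53% of all genes in either direction), the term for library numbers 11 lower (10.3%), and leaving out WT 1 and WT 5 gave 2 lower (3.12%). In the 4 lists of related genes, 7 were higher and 3 lower. Those higher were 14 with DESeq2, 11 with limma voom and with the term for library numbers, 4 with the replicate block and 3 to 14 without single libraries. Those lower were 7 with DESeq2, upper-quartile factors and the term, 5 without scaling factors, 6 with log2 TPM and 2 to 4 without single libraries. Of all genes tested, 11.7% passed with DESeq2, 8.32% with limma voom, 7.37% with upper-quartile factors, 6.94% without scaling factors and 7.77% with log2 TPM. Libraries numbered 1 to 3 alone gave 298 genes (2.10% of all genes tested). There 4 of the cytokine and receptor genes were higher and 5 lower, and 2 of the related genes were higher and 2 lower. Numbers 4 and 5 alone gave 57 genes, with 0 higher and 0 lower among either group by edgeR. Both use fewer samples.

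Of all calls 70.1% were higher in DKO, beside 54.6% with upper-quartile factors, which moved the median of all genes to -0.11 on the log2 scale, 53.7% without scaling factors, 54.9% with log2 TPM and 59.8% with the term for library numbers. With the replicate number as a block, 12 of the cytokine and receptor genes passed, 10 of the 14 among them, beside 3.93% of all genes tested. The calls of Cxcl10, Il6, Il13ra1 and Tnfsf12 were lost there. The correlations of same-numbered libraries were -0.0960, 0.0640, -0.235, 0.199 and 0.105, so the numbers were not used as pairs.

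Genes below about 1 CPM rest on few reads, and differences there were often not detectable at this depth. The causes of the changes between alternatives were not tested.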

Other observations

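A pair of related genes outside the symbol rule had differences that did not pass and in which WT 3 lay nearer to DKO than the other WT libraries did. For Ripk1, a kinase at the TNF receptor, the means were 78.2 ± 11.02 CPM in DKO and 28.5 ± 34.5 CPM in WT (SD, n = 5 each, with a log2 fold change of 1.46, adjusted p = 0.164) and for Ifngr2, the second chain of the interferon gamma receptor, they were 371 ± 10.3 CPM in DKO and 167 ± 113 CPM in WT (SD, n = 5 each, with a log2 fold change of 1.15, adjusted p = 0.147). Ripk1 stood at 88.9, 85.3, 60.6, 75.8 and 80.4 CPM in DKO 1 to 5, against 10.8, 19.9, 89.7, 15.4 and 6.81 CPM in WT 1 to 5. Ifngr2 stood at 359.7, 375, 361, 373 and 384 CPM in DKO 1 to 5, against 52.3, 217, 308, 208 and 47.9 CPM in WT 1 to 5. Without WT 3 the log2 fold changes were 2.565 (adjusted p = 1.76e-04) for Ripk1 and 1.499 (adjusted p = 0.0448) for Ifngr2. WT 3 was the highest WT library for both, WT 1 and WT 5 were the lowest, and values without WT 1 and WT 5 are not given. These genes were chosen after their values were seen, and no cause was tested.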
